A study of Mus musculus with 6 samples.

Results

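Messenger RNA of the genes that activate plasminogen and of the tissue factor branch of coagulation was examined in a mouse podocyte line. The genes were listed by symbol as *Plau*, *Plaur*, *Plat*, *Serpine2*, *F3*, *Tfpi*, *Tfpi2*, *Thbd* and *Anxa2*, and a locus was taken where its gene name held the symbol. Of these 9 genes, 8 had a locus among the 24469 in the expression table and each had only 1, while the expression of *Tfpi2* was not analysed here. MPCs are conditionally immortalized podocytes, the epithelial cells that cover the filtering capillaries of the glomerulus. They were differentiated for 10 days at 37 °C without interferon gamma, starved of serum for 12 h and kept in 25 mM glucose (HG) for 12 h. The 6 libraries fell into 3 groups of 2, namely HG without pretreatment, HG after 1 h with 100 ng/mL wild-type recombinant FGF1 (rFGF1 WT), and HG after the same dose and time with the mutant rFGF1 ΔHBS. The mutant carries substitutions in the heparan sulfate-binding site that weaken receptor dimerization. All groups were in HG, and normal glucose was not analysed here. The labels do not say that the replicates came from separate cultures, so p-values measure the spread between these libraries, which may be technical.

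Plasminogen activators are serine proteases that cleave plasminogen to plasmin, which dissolves fibrin and degrades matrix. Urokinase acts mainly at the cell surface on its receptor, tissue-type activator mainly on fibrin, and serpins inhibit both. Tissue factor starts coagulation by binding factor VII, the pathway inhibitor encoded by *Tfpi* blocks that complex, and thrombomodulin turns thrombin toward the activation of protein C. In the glomerulus these proteins bear on fibrin removal and matrix turnover, and the urokinase receptor has been studied for its role in podocyte foot processes.

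Values are FPKM, the fragments of a locus per kilobase of transcript, scaled to the mapped fragments of the library, and so are already per length. They were tested on the log2(FPKM + 1) scale with limma over 10562 loci whose mean FPKM reached 1, and p-values were adjusted by Benjamini-Hochberg over all of these loci. On this scale the change of a gene of low FPKM is understated. The FPKM of a library summed to between 179594 and 185168. The table gives no read totals, but for loci with 1 annotated transcript the low values of FPKM times length lay on steps, with 41.9% to 45.4% of values within 0.02 of 1 or 2 steps against 5.33% if spread evenly. If a step is 1 fragment, a library held between 22340000 and 23230000 fragments, so the libraries were of similar depth. The values of the replicates were not copies, since no tested locus above 0 had the same FPKM in both libraries of a group. This does not show whether the replicates came from separate cultures.

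The podocyte label was checked against its markers. Of 15 podocyte markers, 13 had a locus and 7 were tested. *Lmx1b* did not exceed 0.00627 FPKM in any library and *Wt1* did not exceed 0.0731. *Nphs1*, which encodes nephrin, lay between 0.618 and 0.942 FPKM. *Actn4*, at a mean of 96.6 FPKM, was the most abundant of the list, and *Podxl*, *Synpo* and *Cd2ap* were present. These defining markers of the podocyte, *Lmx1b* and *Wt1*, were therefore at or near 0 in these libraries. Of 8 endothelial markers 7 were under 0.1 FPKM in every library, and of 6 macrophage markers 4 were, among them *Ptprc* and *Adgre1*. The macrophage gene *Csf1r* fell by 1.32 on the log2 scale after rFGF1 WT (adjusted p = 0.0114, limma) and by 1.19 after rFGF1 ΔHBS (adjusted p = 0.014), and the locus of *Cd68* and *Eif4a1* rose by 0.32 (adjusted p = 0.0496) and 0.37 (adjusted p = 0.0363). The summed FPKM of the macrophage list, most of it from that merged locus, was 62.8 and 60.9 under HG, 69.6 and 66.9 after rFGF1 WT, and 71.2 and 71.1 after rFGF1 ΔHBS. Of 7 mesangial and fibroblast markers 4 were tested and none passed (limma), with an unadjusted p under 0.05 for 4 after rFGF1 WT and 3 after rFGF1 ΔHBS, where 24.8% and 24.9% of all tested loci had one. *Pdgfrb* (26.1 to 32.7 FPKM) and *Acta2* (10.8 to 17.7) of that list were well above 1 in every library. *Gata3* (2.17 to 3.10) and *Col1a1* (1.41 to 2.21) were lower. The 3 under the filter did not exceed 0.0389 FPKM for *Itga8*, 0.161 for *Des* and 0.439 for *Pdgfra*. Of 6 parietal and tubular markers 4 had a locus and 3 were tested. *Pax2* lay at 19.3 to 25.6 FPKM and *Pax8* at 14.3 to 20.3, while *Cdh1*, under the filter, did not exceed 0.0182. *Cldn1* rose by 0.57 after rFGF1 WT (adjusted p = 0.0164, limma) and by 0.50 after rFGF1 ΔHBS (adjusted p = 0.0205). Among podocyte markers *Kirrel* rose after rFGF1 WT by 1.24 (adjusted p = 0.0483) and was 0.88 after rFGF1 ΔHBS (adjusted p = 0.0899), while *Synpo* was lower without passing, by 0.94 (adjusted p = 0.0787) and 0.69 (adjusted p = 0.131). Without 1 library the calls of *Cldn1*, *Kirrel* and the *Cd68* locus were lost for each library left out (highest adjusted p 0.087, 0.173 and 0.162), and *Csf1r* ranged from 0.0360 to 0.0510 after rFGF1 WT and from 0.0409 to 0.0686 after rFGF1 ΔHBS. In bulk RNA, fewer cells of a type and less RNA per cell cannot be told apart, and the part of these markers in the results was not tested.

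The transcripts of both plasminogen activators, of the urokinase receptor and of the annexin that holds plasminogen at the surface were higher after either protein, while *F3* and *Tfpi*, the 2 genes tested of the tissue factor branch, did not pass. Of the 9 listed genes 6 were tested, and each of the 6 exceeded 3 FPKM in every library. With rFGF1 WT 4 of 6 had an adjusted p under 0.05 against HG and all 4 were higher, where 6.19% of tested loci passed in either direction and 3.26% passed as higher. With rFGF1 ΔHBS the count was also 4 of 6, all higher, against 6.26% of tested loci in either direction and 3.37% as higher. At least 2-fold on the log2 scale as well, 1 gene passed after rFGF1 WT (1.01% of tested loci) and 2 passed after rFGF1 ΔHBS (0.899%). This count depends on the pseudocount of 1. With 0.1 in its place *Plaur* also reached the limit after rFGF1 WT, at 1.0018 (adjusted p = 0.0135, limma). Its ratio of mean FPKM to HG was 2.02. Without HG replicate 2 *Plau* was 0.8785 after rFGF1 WT and 0.9842 after rFGF1 ΔHBS, under the limit. *Plat* was also under it after rFGF1 ΔHBS, at 0.9048, without rFGF1 ΔHBS replicate 1. The median log2 fold change of the 6 genes was 0.69 after rFGF1 WT and 0.62 after rFGF1 ΔHBS, and that of all tested loci was -0.04 in both. The 2 comparisons share the HG libraries, so their values stand side by side and are not independent. The listed genes and the pathway lists below were chosen with earlier results of these data known. Their counts beside the shares of all tested loci are therefore descriptive and not an independent test.

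*Plau* encodes urokinase, the activator that works at the cell surface, and lies at 20836660 to 20843385 on chromosome 14 (GENCODE M21, GRCm38, as for the positions that follow). Its FPKM was 18.5 and 14.9 under HG, 36.8 and 33.1 after rFGF1 WT, and 36.4 and 38.9 after rFGF1 ΔHBS. Every treated library was higher than both HG libraries, and the treated groups overlapped. The log2 fold change was 1.03 after rFGF1 WT (standard error 0.12, adjusted p = 0.0252) and 1.13 after rFGF1 ΔHBS (standard error 0.12, adjusted p = 0.0219). The ratio of mean FPKM to HG was 2.09 and 2.25.

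*Plat* encodes tissue-type plasminogen activator, which acts mainly on fibrin, and lies on chromosome 8 from 22757727 to 22782844. Its FPKM was 14.0 in each library under HG, 28.4 and 27.5 after rFGF1 WT, and 32.4 and 27.1 after rFGF1 ΔHBS. The HG libraries lay below all treated libraries, and the 2 libraries after rFGF1 ΔHBS spread around those after rFGF1 WT. The log2 fold change was 0.95 after rFGF1 WT (standard error 0.10, adjusted p = 0.0196) and 1.03 after rFGF1 ΔHBS (standard error 0.10, adjusted p = 0.018).

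*Plaur* encodes the receptor that binds urokinase at the membrane, and lies on chromosome 7 from 24462484 to 24475968. Its FPKM was 5.72 and 5.37 under HG, 10.7 and 11.7 after rFGF1 WT, and 10.2 and 10.5 after rFGF1 ΔHBS. No treated library came within the HG range. The log2 fold change was 0.90 after rFGF1 WT (standard error 0.07, adjusted p = 0.0134) and 0.79 after rFGF1 ΔHBS (standard error 0.07, adjusted p = 0.017).

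*Anxa2* encodes annexin A2, which with S100A10 forms a surface complex that binds plasminogen and tissue-type activator, and lies on chromosome 9 from 69453620 to 69491795. It was the most abundant of the 8 genes and ranked 109 of 24469 loci by mean FPKM. Its FPKM was 118 and 123 under HG, 162 and 165 after rFGF1 WT, and 159 and 168 after rFGF1 ΔHBS. The treated libraries stood together above HG, with a smaller step than the activators. The log2 fold change was 0.44 with each protein (standard error 0.05), with an adjusted p of 0.0225 after rFGF1 WT and 0.0226 after rFGF1 ΔHBS.

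**Figure D1:**
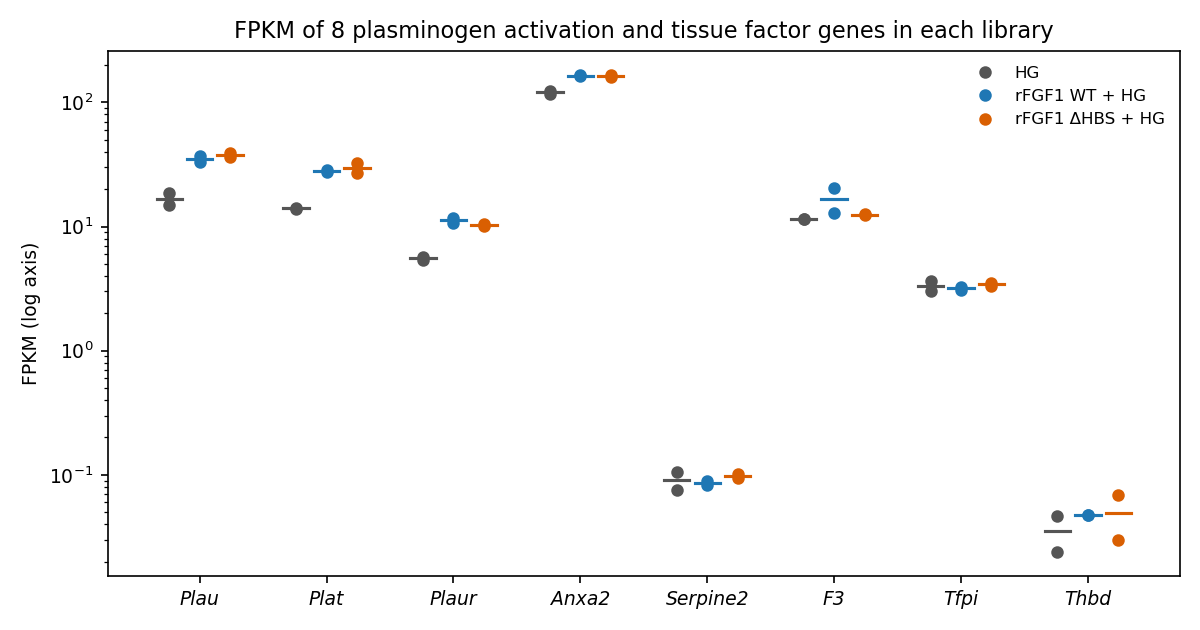
FPKM on a log axis for the 8 genes with a locus, by group. Each point is 1 library and each bar the mean of the 2 libraries of a group. *Plau*, *Plat*, *Plaur* and *Anxa2* sit above HG in all 4 treated libraries, and *Serpine2* and *Thbd* lie near or below 0.1 FPKM throughout.

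These adjusted p rest on the spread shared by 6 libraries with 3 residual degrees of freedom. limma also draws the spread of each gene toward a trend over all tested loci. Leaving out any 1 library gave *Plau* an adjusted p of 0.0559 to 0.112 after rFGF1 WT and 0.0522 to 0.0960 after rFGF1 ΔHBS, and *Anxa2* 0.0554 to 0.0993 and 0.0631 to 0.0970, so both lost the call without each library in turn. *Plaur* kept it after rFGF1 WT only without rFGF1 WT replicate 1 (range 0.0449 to 0.0602), and after rFGF1 ΔHBS only without either rFGF1 WT library (range 0.0478 to 0.0764). *Plat* kept both calls without either rFGF1 ΔHBS library and lost them without any of the others, with ranges of 0.0252 to 0.0955 and 0.0274 to 0.0827. In all of these fits the 4 genes were higher than HG, with log2 fold changes between 0.40 and 1.28.

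*Serpine2* encodes protease nexin 1, a serpin that inhibits urokinase and thrombin. Its FPKM was 0.106 and 0.0751 under HG, 0.0836 and 0.0900 after rFGF1 WT, and 0.101 and 0.0937 after rFGF1 ΔHBS. All treated libraries lay within the HG range, and the values correspond to at most 8.263 fragments in a library if a step is 1 fragment. The gene was under the filter, and without it the adjusted p was 0.967 after rFGF1 WT and 0.887 after rFGF1 ΔHBS. A small change would not be detected at this depth.

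*F3* encodes tissue factor, the membrane receptor that starts coagulation, and lies on chromosome 3 from 121723537 to 121735048. Its FPKM was 11.4 and 11.6 under HG, 20.6 and 12.9 after rFGF1 WT, and 12.5 and 12.5 after rFGF1 ΔHBS. All 4 treated libraries were above HG, but rFGF1 WT replicate 1 stood apart from the other 5. The log2 fold change was 0.47 after rFGF1 WT (95% interval -0.12 to 1.07, adjusted p = 0.281) and 0.11 after rFGF1 ΔHBS (interval -0.48 to 0.70, adjusted p = 0.795). Without rFGF1 WT replicate 1 the value after rFGF1 WT was 0.16 (adjusted p = 0.306), and without rFGF1 WT replicate 2 it was 0.79 (adjusted p = 0.0404), within a range of 0.0404 to 0.492 over the alternatives.

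*Tfpi* encodes the inhibitor of the tissue factor complex, and lies on chromosome 2 from 84432855 to 84476775. Its FPKM was 3.04 and 3.63 under HG, 3.24 and 3.11 after rFGF1 WT, and 3.52 and 3.32 after rFGF1 ΔHBS. Each treated group overlapped HG. The log2 fold change was -0.05 after rFGF1 WT (95% interval -0.30 to 0.20, adjusted p = 0.782) and 0.03 after rFGF1 ΔHBS (interval -0.22 to 0.29, adjusted p = 0.876).

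*Thbd* encodes thrombomodulin in 1 exon on chromosome 2 from 148404466 to 148408188. Its FPKM was 0.0468 and 0.0240 under HG, 0.0479 and 0.0472 after rFGF1 WT, and 0.0693 and 0.0297 after rFGF1 ΔHBS. If a step is 1 fragment, these values stand for 2 to 5.993 fragments in a library. The libraries after rFGF1 ΔHBS overlapped both other groups, and without the filter the adjusted p was 0.785 after rFGF1 WT and 0.756 after rFGF1 ΔHBS.

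By level under HG, *Anxa2* came first with a mean of 120 FPKM, followed by *Plau* (16.7 ± 2.55, SD, n = 2), *Plat* (14.0 ± 0.0471), *F3* (11.5 ± 0.104), *Plaur* (5.55 ± 0.252), *Tfpi* (3.33 ± 0.417), *Serpine2* (0.0906 ± 0.0219) and *Thbd* (0.0354 ± 0.0161). The gap between *Plau* and *Plat* was close to the SD of *Plau*. With rFGF1 WT, *Plau* had 34.9 ± 2.58 and *Plat* 28.0 ± 0.580, and after rFGF1 ΔHBS 37.6 ± 1.81 and 29.8 ± 3.76.

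The mutant was compared with the wild-type protein at the same dose and time. None of the 6 passed at an adjusted p of 0.05 (limma), where 0.549% of tested loci did, and 0 had an unadjusted p under 0.05, where 4.87% of tested loci did. The difference of rFGF1 ΔHBS from rFGF1 WT was 0.11 for *Plau* (95% interval -0.23 to 0.44), 0.08 for *Plat* (-0.18 to 0.34), -0.10 for *Plaur* (-0.29 to 0.09) and -0.00 for *Anxa2* (-0.13 to 0.13). It was -0.36 for *F3* (-0.95 to 0.23) and 0.08 for *Tfpi* (-0.17 to 0.34). For *F3* it was -0.0434 without rFGF1 WT replicate 1 and -0.6789 without rFGF1 WT replicate 2. Over the fits without 1 library it ranged from 0.032 to 0.179 for *Plau* and from -0.163 to -0.045 for *Plaur*. The intervals bound these differences and do not show that the proteins act alike.

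**Figure D2:**
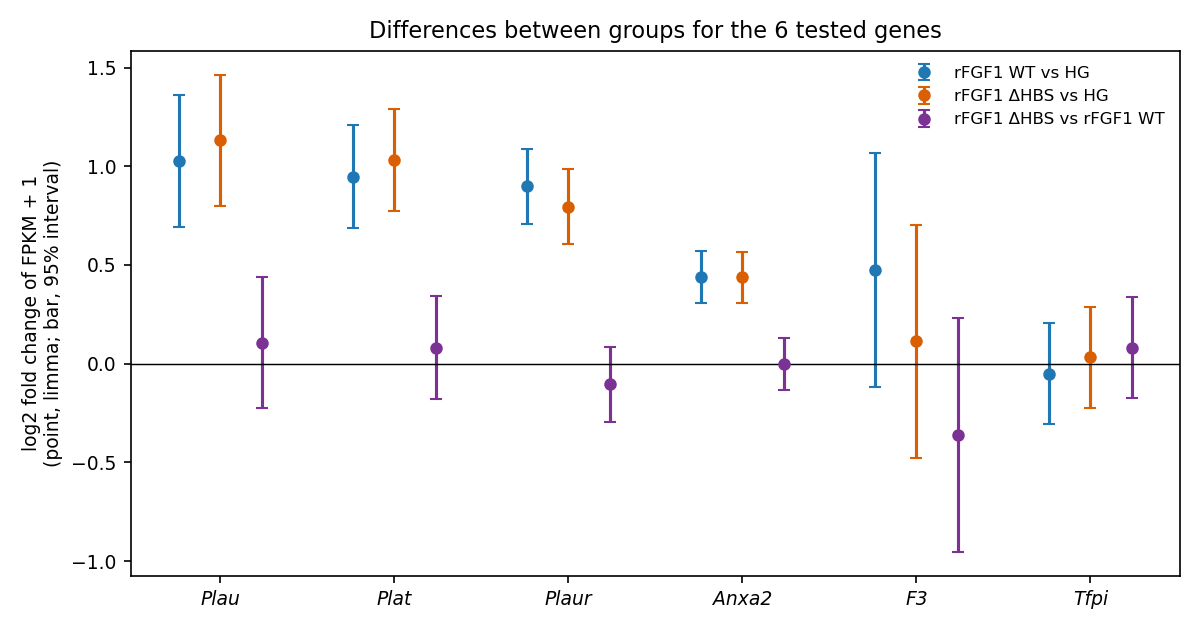
Log2 fold change of FPKM + 1 for the 6 tested genes in 3 comparisons. Points are limma estimates and bars their 95% intervals. Intervals of *Plau*, *Plat*, *Plaur* and *Anxa2* against HG lie above 0, and every interval of rFGF1 ΔHBS against rFGF1 WT spans 0.

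Other genes of the plasminogen system were taken from a list of 19, of which 15 had a locus and 9 were tested. With rFGF1 WT 1 of 9 rose, 1 fell and 7 did not pass, and after rFGF1 ΔHBS 1 rose and 8 did not pass, where 6.19% and 6.26% of all tested loci passed in either direction. An unadjusted p under 0.05 was seen for 6 and 5 of the 9, against 24.8% and 24.9% of all tested loci. *Thbs1*, which encodes thrombospondin 1, had 128 and 133 FPKM under HG, 177 and 180 after rFGF1 WT and 176 and 188 after rFGF1 ΔHBS, with log2 fold changes of 0.45 (adjusted p = 0.0245) and 0.48 (adjusted p = 0.0225). *Plgrkt*, a plasminogen receptor, had 10.2 and 10.1 FPKM under HG, 8.03 and 7.80 after rFGF1 WT and 8.93 and 8.62 after rFGF1 ΔHBS. It fell by 0.32 after rFGF1 WT (adjusted p = 0.0492), and was -0.19 after rFGF1 ΔHBS (adjusted p = 0.126), a difference between the proteins of 0.13 (adjusted p = 0.905). The genes of highest FPKM among the rest were *Eno1*, *S100a10*, *Lrp1* and *Serpinb6a*. *S100a10*, the partner of annexin A2, had a log2 fold change of 0.27 after rFGF1 WT (adjusted p = 0.101) and 0.34 after rFGF1 ΔHBS (adjusted p = 0.0645). *Lrp1*, a receptor that clears complexes of activators and inhibitors, had -0.25 (adjusted p = 0.147) and -0.15 (adjusted p = 0.324). The median over the 9 was 0.14 after rFGF1 WT and 0.08 after rFGF1 ΔHBS. Leaving out any 1 library gave *Thbs1* an adjusted p of 0.0525 to 0.108 after rFGF1 WT and 0.0637 to 0.101 after rFGF1 ΔHBS, and *Plgrkt* 0.0919 to 0.166 after rFGF1 WT.

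Thrombin acts on cells through some of the protease-activated receptors. Of 5 genes listed for these receptors and for platelet glycoprotein Ib, 4 had a locus. The 2 that were tested rose with both proteins, as 3.26% and 3.37% of all tested loci did, and of these only *F2r* encodes a receptor of thrombin. *F2r* encodes PAR1 and lies on chromosome 13 from 95601803 to 95618487. Its FPKM was 65.3 and 62.9 under HG, 95.4 and 99.0 after rFGF1 WT and 97.2 and 93.1 after rFGF1 ΔHBS. It rose by 0.59 after rFGF1 WT (adjusted p = 0.0151) and by 0.56 after rFGF1 ΔHBS (adjusted p = 0.0173). *F2rl1*, on the same chromosome from 95511732 to 95525227, encodes PAR2, which trypsin-like proteases activate. Its FPKM was 23.4 and 22.0 under HG, 64.8 and 64.9 after rFGF1 WT and 67.4 and 63.5 after rFGF1 ΔHBS. It rose by 1.47 after rFGF1 WT (standard error 0.06, adjusted p = 0.00345) and by 1.49 after rFGF1 ΔHBS (adjusted p = 0.00392). Leaving out any 1 library gave *F2rl1* an adjusted p of 0.0184 to 0.0221 and 0.0199 to 0.0251, and *F2r* 0.0488 to 0.0655 and 0.0518 to 0.0716.

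Of 23 listed coagulation genes 14 had a locus, and 10 of these were under a mean of 1 FPKM, 7 of them under 0.1 in every library. None of the 4 tested genes passed against HG with either protein (limma), and 1 of 4 had an unadjusted p under 0.05 with each, close to the 24.8% and 24.9% of all tested loci. *Pros1*, which encodes protein S, was the most abundant, at 16.2 and 15.3 FPKM under HG, 15.3 and 15.0 after rFGF1 WT, and 17.2 and 10.4 after rFGF1 ΔHBS. *Procr*, the receptor of protein C, had 1.16 and 1.02 under HG, 1.88 and 1.43 after rFGF1 WT, and 1.52 and 2.08 after rFGF1 ΔHBS (adjusted p = 0.274 and 0.198). *Ggcx*, the carboxylase of clotting factors, had log2 fold changes of -0.20 (adjusted p = 0.274) and -0.09 (adjusted p = 0.59). *Vkorc1* lay in a locus merged with *Prss53* and *Gm21974*, so its fragments cannot be told apart from theirs, and that locus had 0.76 (adjusted p = 0.186) and -0.20 (adjusted p = 0.691). Between the proteins none of the tested plasminogen, coagulation or protease-activated receptor genes passed (limma), and an unadjusted p under 0.05 was seen for 0 of 9, 1 of 4 and 0 of 2, against 4.87% of all tested loci.

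**Figure D3:**
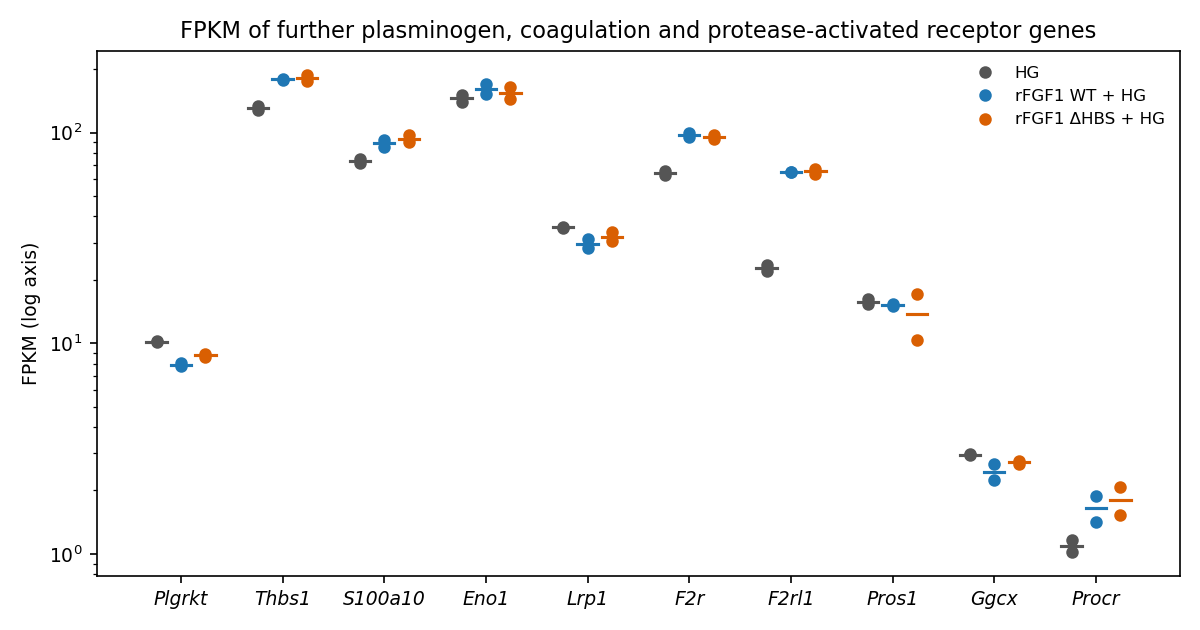
FPKM on a log axis for 10 further genes, 5 of the plasminogen system, 2 protease-activated receptors and 3 of coagulation, by group. Each point is 1 library and each bar the mean of the 2 libraries of a group. *F2r* and *F2rl1* sit above HG in all treated libraries, while *Pros1*, *Ggcx* and *Procr* did not pass the test.

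FGF receptors signal through ERK, and genes of that response were listed as a check of the treatment. The list was chosen with earlier results of these data known, so its counts are not an independent check. All 16 had a locus and 15 were tested, of which 8 rose after rFGF1 WT and 6 after rFGF1 ΔHBS, where 3.26% and 3.37% of all tested loci did. The median log2 fold change was 1.19 and 1.31. *Etv5* had 0.486 and 0.578 FPKM under HG, 7.72 and 8.31 after rFGF1 WT and 8.23 and 8.42 after rFGF1 ΔHBS, with log2 fold changes of 2.56 (adjusted p = 0.00158) and 2.61 (adjusted p = 0.00199). *Ccnd1*, *Etv4*, *Dusp5*, *Spry4* and *Phlda1* also rose with both. After rFGF1 WT 7 of the 15 did not pass, and after rFGF1 ΔHBS 9 did not. Among them *Egr1* had -0.04 (adjusted p = 0.775, limma) and -0.09 (adjusted p = 0.549). *Spred1* also did not pass, with 11.1 and 10.4 FPKM under HG, 6.73 and 28.1 after rFGF1 WT, and 30.5 and 28.8 after rFGF1 ΔHBS. *Spry2* (adjusted p = 0.0492) and *Myc* (adjusted p = 0.0457) passed after rFGF1 WT, and had an adjusted p of 0.0648 and 0.0531 after rFGF1 ΔHBS. For the difference between the proteins their adjusted p was 0.928 and 0.98. Leaving out any 1 library kept both calls of *Etv5* and *Ccnd1*, while the other 6 genes each lost theirs without at least 1 library. Without 1 library *Spry2* had 0.0918 to 0.164 and *Myc* 0.0620 to 0.145 with the wild-type protein.

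For each gene that passed, the 3 tested loci with the nearest profile over the 6 libraries were found, by Euclidean distance of centred log2(FPKM + 1) among 10211 loci above 0 in all libraries. For *Plau* they were *Dusp5* (distance 0.186), *Upp1* (0.209) and *Epha2* (0.228), for *Plaur* *Plk2* (0.109), *Dtnb* (0.118) and *Arl5b* (0.134), and for *Plat* *Ccl2* (0.179), *Vcl* (0.189) and *Nrp1* (0.194). For *Anxa2* they were *Prkca* (0.0423), *Blnk* (0.0435) and *Thbs1* (0.0446). The distance depends on the size of the change, so it is smaller for a gene that moved little.

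Promoter windows of 300 bases, 250 before to 50 after the start, were taken from RefSeq on GRCm38.p6. Of the listed genes *Plaur*, *Serpine2*, *F3*, *Tfpi*, *Tfpi2* and *Anxa2* had 9 windows, 3 of them of *Tfpi2*. Windows of *Plau*, *Plat* and *Thbd* were not analysed here. Both strands were searched for the AP-1 motif TGAGTCA, the ETS motif CCGGAAG, the CRE motif TGACGTCA and the EGR1 motif GCGTGGGCG, a choice made after some windows had been seen. The AP-1 letters occurred in the windows of *Plaur*, *F3* and *Anxa2*, and in 5.2% of all 32851 windows. The other motifs, held by 8.86%, 1.79% and 0.612% of all windows, had no match in these 9 windows. *Plaur* and *Anxa2* passed the test and *F3* did not, so a match went with both outcomes. The windows are printed 5′ to 3′ on the strand of the gene to show where the letters lie, with the AP-1 match in capitals. They lie at chr7:24462233-24462532 for *Plaur*, chr3:121723287-121723586 for *F3* and chr9:69453433-69453732 for *Anxa2*, all on the plus strand. The match began at -69, -135 and -95 from the start. A match is a description and not a binding site.
Plaur: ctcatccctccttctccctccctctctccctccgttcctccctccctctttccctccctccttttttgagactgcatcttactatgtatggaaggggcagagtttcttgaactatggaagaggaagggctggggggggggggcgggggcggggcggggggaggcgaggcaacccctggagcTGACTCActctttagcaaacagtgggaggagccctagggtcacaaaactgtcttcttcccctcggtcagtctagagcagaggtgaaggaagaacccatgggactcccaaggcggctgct
F3: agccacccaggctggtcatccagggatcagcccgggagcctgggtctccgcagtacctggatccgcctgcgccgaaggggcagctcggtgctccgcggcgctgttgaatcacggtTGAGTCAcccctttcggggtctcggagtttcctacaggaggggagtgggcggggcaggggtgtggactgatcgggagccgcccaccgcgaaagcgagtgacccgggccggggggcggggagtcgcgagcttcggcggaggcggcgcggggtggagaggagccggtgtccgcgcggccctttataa
Anxa2: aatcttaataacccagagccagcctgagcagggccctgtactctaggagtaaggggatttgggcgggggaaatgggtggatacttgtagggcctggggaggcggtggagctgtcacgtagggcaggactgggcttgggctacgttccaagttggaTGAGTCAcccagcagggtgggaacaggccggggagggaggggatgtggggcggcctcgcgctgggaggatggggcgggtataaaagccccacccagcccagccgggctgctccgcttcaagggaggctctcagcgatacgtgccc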

How the data were processed

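RNA-Seq covered 6 libraries in 3 groups of 2, each assigned to its group by its labels. Paired-end poly(A) libraries were sequenced, and the authors deposited FPKM per locus, which their methods summarize with edgeR. The submitters' processing notes name HISAT2 2.0, StringTie 1.3.0, Bowtie 0.12.2 and the build mm8, with no role or order. Positions and transcript lengths came from GENCODE M21 (GRCm38) through the transcripts of each locus, and never from mm8. Fragments of merged or overlapping loci may be divided in ways the table does not show.

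With limma 3.58.1 (R 4.3.3), log2(FPKM + 1) was modelled on group means in 1 fit of all libraries, with a trend in eBayes, over loci whose mean FPKM reached 1. Calls needed a Benjamini-Hochberg adjusted p under 0.05, and the stricter call also a log2 fold change of 1, the limits of the study. limma was tested on simulated data. An exact permutation test of 2 against 2 cannot go below 0.333, so none was used. matplotlib 3.10.9 drew the plots, and pandas 2.3.3 with numpy 2.4.6 under Python 3.11.15 made the tables.

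Named genes are the 9 listed genes, genes of 4 pathway lists with an adjusted p under 0.05 in any comparison, otherwise at most 4 of highest mean FPKM in a list, cell type markers, and the 3 nearest profiles of each listed gene that passed. *Egr1*, *Spred1*, *Masp1* and *Itgb2* were named besides, after their values were seen. The results of 2 list genes are not reported here, and list counts leave them out. The listed genes and the lists were chosen with earlier results of these data known. Alternatives were a pseudocount of 0.1, no filter, a mean FPKM of at least 5, only loci above 0 in all libraries, median-ratio scaling, only the 4 libraries compared, a replicate block, and leaving out each library. Summing the loci of a symbol was also planned and gives the same values, since each gene had 1 locus.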

Additional observations from a re-analysis of the deposited data

How the results depend on the processing

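The direction of *Plau*, *Plat*, *Plaur* and *Anxa2* against HG held in all 104 of the alternative values computed for them, with log2 fold changes of 0.40 to 1.28, but 57 of the 104 no longer had an adjusted p under 0.05. All 8 calls held with a pseudocount of 0.1, a mean FPKM of at least 5, only loci above 0 in all libraries and median-ratio scaling. Without the filter both calls of *Anxa2* were lost. The number of tested genes called against HG, 4 with each protein, became 1 with each when only the 4 libraries compared were fitted, which leaves 2 residual degrees of freedom, and 0 to 1 with each protein without 1 library, where the lone library of a group is assumed to vary like the other groups. The 1 called after rFGF1 WT without rFGF1 WT replicate 2 was *F3* and not one of the 4.

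Genes past the threshold numbered 107 for rFGF1 WT against HG, 95 for rFGF1 ΔHBS against HG and 37 for rFGF1 ΔHBS against rFGF1 WT. The first became 69 at a mean FPKM of at least 5, where fewer loci are tested, and the second 151 with a pseudocount of 0.1. The third became 18 at a mean FPKM of at least 5, 13 with only loci above 0 in all libraries, and 43 to 103 without 1 library; the cause was not tested.

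Same-numbered libraries deviated together little or not at all (correlations of -0.021, 0.098 and -0.047 over 10562 loci). Correlations over all loci cannot show whether a pairing affected some of them. With the replicate block the counts past the threshold were 39, 36 and 6, and 0 listed genes were called with either protein.

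Small differences changed sign without 1 library. *Tfpi* ranged from -0.148 to 0.0485 with rFGF1 WT and from -0.0669 to 0.130 with rFGF1 ΔHBS, being -0.0016 without rFGF1 ΔHBS replicate 1. For rFGF1 ΔHBS against rFGF1 WT, *Plat* ranged from -0.0431 to 0.207 and *Anxa2* from -0.0387 to 0.0343, being 0.0111 without rFGF1 WT replicate 2. The cause was not tested. Depth limits *Serpine2* and *Thbd*, which rest on few fragments.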

Other observations

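The KEGG pathway of complement and coagulation cascades is counted here as 56 of 24469 loci (0.229%) by the annotation in the deposited table, among them 6 of the 8 genes with a locus, *Serpine2* and *Anxa2* being outside it. Of the 15 annotated loci that were tested, 5 rose and 1 fell with each protein, where 6.19% of all tested loci passed after rFGF1 WT and 6.26% after rFGF1 ΔHBS, and the median log2 fold change was 0.19 after rFGF1 WT and 0.14 after rFGF1 ΔHBS. *Masp1*, named after its values were seen, was the one that fell. It encodes a protease of the lectin pathway of complement, and its FPKM was 4.82 and 4.26 under HG, 1.96 and 2.27 after rFGF1 WT, and 1.94 and 2.12 after rFGF1 ΔHBS. The log2 fold change of *Masp1* was -0.83 after rFGF1 WT (adjusted p = 0.0250, limma) and -0.87 after rFGF1 ΔHBS (adjusted p = 0.0235). Of the 5 that rose, 4 are *Plau*, *Plaur*, *Plat* and *F2r*, so the count is not independent of theirs. These 4 lost calls without some libraries, as given above, and the count of 5 was not tested without 1 library. The other that rose was *Itgb2*, also named after its values were seen. Its FPKM was 0.407 and 0.460 under HG, 1.25 and 1.27 after rFGF1 WT, and 1.46 and 1.63 after rFGF1 ΔHBS. Its adjusted p was 0.0353 and 0.0225 (limma).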
